A study of Rattus norvegicus and Mus musculus with 24 samples.

Results

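The 9 genes described here encode parts of TGF-beta and BMP signalling: the ligands TGFB1, TGFB2, TGFB3 and BMP7, the latency protein LTBP1, the receptors TGFBR1 and TGFBR2, the effector SMAD3 and the inhibitor SMAD7. They were chosen by name and found by symbol in the expression tables of mouse and rat kidney, which hold 18043 symbols between them. All 9 stood among the 17376 symbols of the mouse table, and 8 stood among the 14931 symbols of the rat table; BMP7 was not analysed here in the rat. Bulk RNA was sequenced from animals without Ctns, the gene of the lysosomal cystine exporter that is defective in cystinosis, and from wild-type animals. There were 4 Ctns KO and 4 Ctns WT mice and 8 Ctns KO and 8 Ctns WT rats, with 1 library per animal. Per the methods, the mice were of a C57BL/6 and the rats of a Sprague-Dawley background, and the wild types were littermates. The labels give the genotype (CTNS KO or CTNS WT) as the only difference between groups and name no age, treatment or cell-type-restricted Cre. The labels name kidney cortex as the tissue and proximal tubule cells as the cell type, and their protocol speaks of microdissected tubules, whereas the methods speak of cortex. Rats carry the numbers 17 to 24 or 25 to 32, with 4 Ctns KO and 4 Ctns WT animals in each range, and what the ranges stand for is not given in the sources used here. Since the ranges stand apart, each is also described alone.

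As background, TGF-beta is secreted in a latent complex that LTBP1 and some of its relatives tether to the matrix. The freed ligand binds TGFBR2, which activates TGFBR1, and TGFBR1 phosphorylates SMAD3, whereas SMAD7 blocks the active receptor. In the kidney TGF-beta is known for driving matrix production in fibrosis, and BMP7 for maintaining tubular epithelium.

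Between 19309371 and 44449843 reads per mouse and between 24684097 and 40629873 reads per rat fell on genes. Mouse levels are given as scaled values, in which the 75th percentile of each library is 1, and rat levels as CPM, library-scaled reads after TMM normalization. CTNS, the deleted gene, had mean scaled values of 0.332 ± 0.0102 in the knockout and 0.918 ± 0.0869 in the wild-type mice (SD over 4 mice each), without overlap. In the rat its mean CPM was 19.1 ± 1.86 in the knockouts and 22.3 ± 2.98 in the wild types (SD over 8 rats each), and the groups overlapped (log2 fold change -0.22, standard error 0.08, adjusted p = 0.0511 by edgeR). The rat CTNS difference passed by DESeq2 (adjusted p = 0.0416), with the number range in the fit (0.0239) and in rats 25 to 32 (log2 -0.32, adjusted p = 0.0111 by edgeR). Which part of the gene is deleted is not given in the sources used here, so reads on what remains do not check the rat labels. Markers of the labelled cell type were abundant, but markers of podocytes, endothelium, distal tubule, fibroblasts and macrophages were also present in each library. Over all symbols tested, 6.34% were called higher and 2.42% lower in Ctns KO mice, and 15.2% and 12.3% in Ctns KO rats. Among the 7 marker lists, macrophage markers were higher in Ctns KO for 7 of 7 tested in mice and 5 of 7 in rats, and fibroblast markers for 2 of 7 and 4 of 5. Proximal tubule markers were lower in 6 of 8 tested in rats, and in mice 0 of 10 passed by limma or edgeR (2 and 4 before adjustment) and 3 by DESeq2. Of the other lists, lymphocyte markers were higher in 3 of 4 tested in rats and distal tubule markers in 2 of 5, and 1 of 6 endothelial markers was lower in mice (0 of 5 in rats by edgeR, 1 before adjustment and 1 by DESeq2). Of the podocyte markers, 0 of 6 passed in mice and over all rats by limma, edgeR or DESeq2, with 0 before adjustment. In rats 25 to 32 alone 3 of 6 were lower by edgeR, where 50% of all symbols were called. In bulk tissue, fewer cells of a type and less RNA per cell cannot be told apart.

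In Ctns WT mice the members differed widely in level. Divided by the exon length of each gene in kilobases, BMP7 had the highest mean, 0.402 scaled units per kb (range 0.372 to 0.474 over 4 mice), followed by TGFBR2 at 0.242, SMAD3 at 0.238 and TGFBR1 at 0.226. The ranges of these last members overlapped, so their order is not distinguishable beyond the spread. SMAD7 followed at 0.161 per kb (0.118 to 0.184). The TGF-beta ligands and LTBP1 were lower still: TGFB1 at 0.0429 and LTBP1 at 0.0368, with overlapping ranges, then TGFB2 at 0.0212 (0.0185 to 0.0241) and TGFB3 at 0.0146 (0.0119 to 0.0173), which did not overlap each other. Exon lengths came from the GENCODE annotation of GRCm38 and ran from 3.38 kb for TGFB3 to 10.7 kb for LTBP1. In the rat, where no annotation of the build used was at hand, levels were not compared between genes.

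The mouse comparison asks which members differ between Ctns KO and Ctns WT kidneys. TGFBR2, the receptor that first binds the ligand (chr9:116084293-116175360, minus strand of GRCm38), rose in Ctns KO mice and was the 1 member of 9 past the threshold, where 8.76% of the 12555 symbols tested were called. Its scaled values were 2.10, 2.69, 2.69 and 2.34 in Ctns KO mice 3, 5, 6 and 8, and 1.89, 2.22, 1.91 and 1.90 in Ctns WT mice 1, 2, 4 and 7. Ctns WT mouse 2 stood above the other wild types and above Ctns KO mouse 3, so the groups overlapped, although 3 of 4 knockouts exceeded every wild type. The means were 2.46 ± 0.290 and 1.98 ± 0.161 (SD, n = 4 each), and the log2 difference was 0.30 (standard error 0.09, adjusted p = 0.0436 by limma with Benjamini-Hochberg adjustment). The call was lost without Ctns KO mouse 5, 6 or 8 or Ctns WT mouse 1, 4 or 7, with adjusted p up to 0.166, and without the filter on low values, with adjusted p = 0.121.

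**Figure D1:**
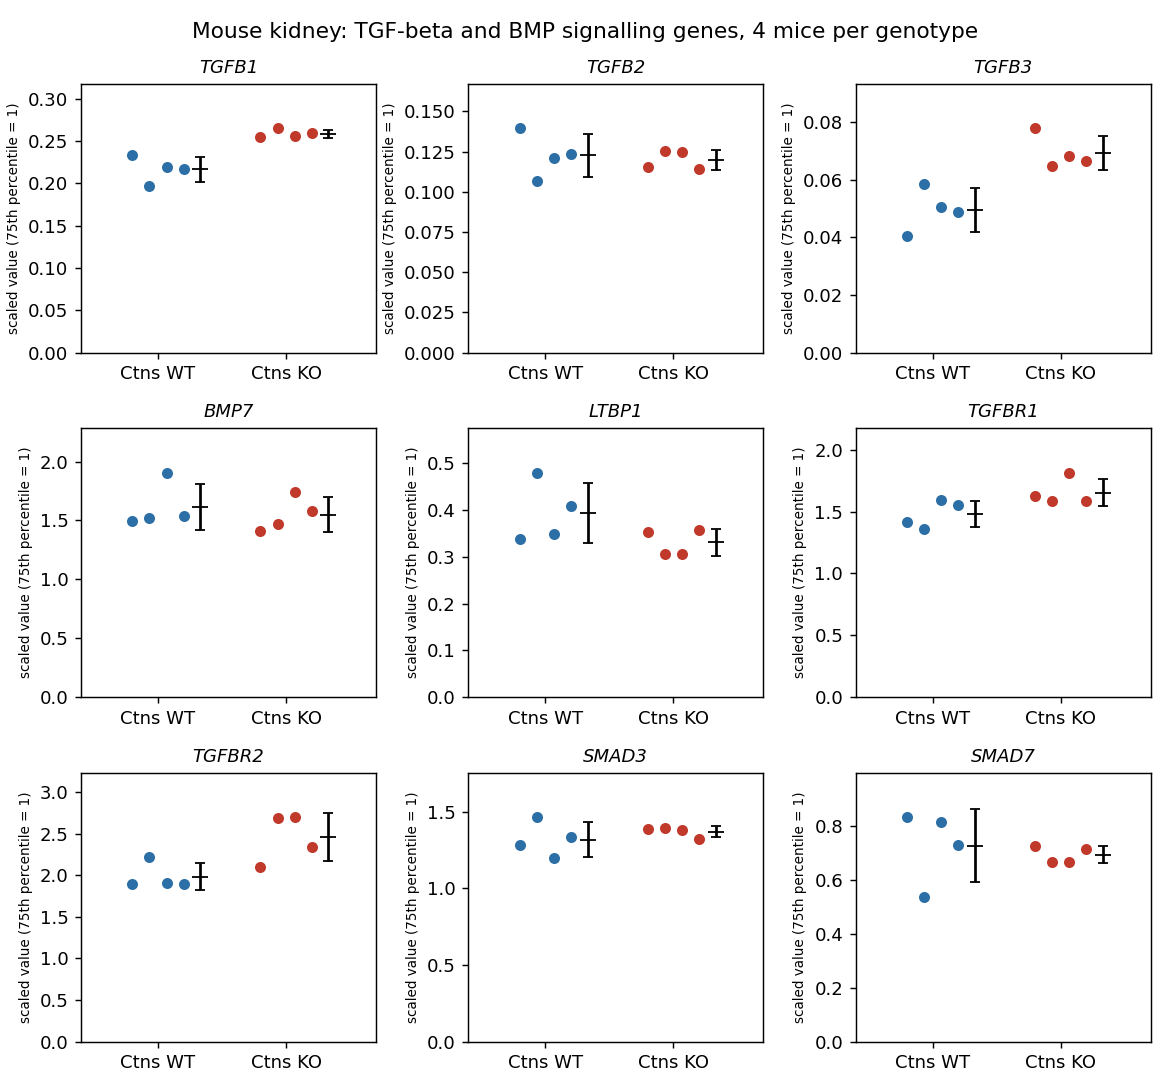
Scaled values (75th percentile of each library = 1) of the 9 members in 4 Ctns WT (blue) and 4 Ctns KO (red) mice, 1 point per mouse, with the mean and SD as bars. The Ctns KO points of TGFB1 and TGFB3 lie above all Ctns WT points, and those of TGFBR2 do so in 3 of 4 mice.

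Among the ligands, TGFB1 (chr7:25687002-25705077, plus strand) had scaled values of 0.254, 0.265, 0.256 and 0.260 in Ctns KO mice 3, 5, 6 and 8. The Ctns WT mice 1, 2, 4 and 7 had 0.233, 0.197, 0.219 and 0.217. Every knockout lay above every wild type, and the spread among knockouts was the smaller one (SD 0.00477 against 0.0151, n = 4 each). The difference of 0.24 on the log2 scale (standard error 0.08) did not pass the threshold (adjusted p = 0.0901 by limma).

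TGFB3 (chr12:86056745-86079041, minus strand), the lowest member, had scaled values of 0.0778, 0.0648, 0.0684 and 0.0664 in the knockouts against 0.0403, 0.0586, 0.0504 and 0.0488 in the wild types. The groups again did not overlap, on 53 to 111 reads per mouse, and the difference was 0.37 (standard error 0.12, adjusted p = 0.0694 by limma). Leaving out Ctns WT mouse 2, the highest wild type, brought TGFB3 past the threshold (adjusted p = 0.0366). These were 2 of 9 members whose groups did not overlap, where 14.2% of all symbols tested had such groups. TGFB2 (chr1:186622792-186705989, minus strand) had means of 0.120 ± 0.00593 and 0.123 ± 0.0133 in knockouts and wild types (SD, n = 4 each). Its log2 difference was -0.03 with an interval of 2 standard errors from -0.23 to 0.17.

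BMP7 (chr2:172868012-172940321, minus strand), the BMP ligand of the tubule, did not pass the test in mice (log2 fold change -0.06, interval -0.23 to 0.12, adjusted p = 0.787 by limma). Its scaled values were 1.41, 1.47, 1.74 and 1.58 in Ctns KO mice 3, 5, 6 and 8 and 1.496, 1.52, 1.90 and 1.54 in Ctns WT mice 1, 2, 4 and 7. One wild type, mouse 4, stood apart at the top, and without it the difference changed sign to 0.03.

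LTBP1, which tethers latent TGF-beta (chr17:75005568-75392512, plus strand), had means of 0.331 ± 0.0282 in Ctns KO and 0.394 ± 0.0649 in Ctns WT mice (SD, n = 4 each). Its log2 fold change of -0.23 (interval -0.44 to -0.01) did not pass after adjustment (adjusted p = 0.234 by limma), and 2 of 4 knockouts lay below every wild type. TGFBR1, the signalling receptor (chr4:47353222-47414931, plus strand), had means of 1.65 ± 0.109 and 1.48 ± 0.108 and a difference of 0.16 (adjusted p = 0.203). SMAD3 (chr9:63646767-63757994, minus strand) differed by 0.06 (interval -0.08 to 0.19) and SMAD7 by -0.05 (interval -0.28 to 0.19). For SMAD7 the 4 knockouts, 0.665 to 0.726, lay within the wild-type range of 0.534 to 0.830.

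In the same mice the summed scaled values of the 7 macrophage markers ran from 7.92 to 10.2 in Ctns KO and from 5.18 to 6.06 in Ctns WT, and those of the 7 fibroblast markers from 5.98 to 6.59 and from 3.62 to 4.91. The 2 fibroblast markers called in mice were COL1A1 and COL3A1. Their mean scaled values were 0.798 and 1.54 in Ctns KO and 0.353 and 0.480 in Ctns WT mice. ACTA2 and POSTN of that list differed by 0.13 and -0.01 on the log2 scale without passing. No marker of either list was at 0. Their part in the differences of TGFBR2, TGFB1 and TGFB3 was not tested.

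In the rat, 4 of 8 members passed the threshold over all 16 animals, where 27.5% of the 11584 symbols tested were called. TGFB1 and TGFB3 rose, and SMAD7 and LTBP1 fell. Of the 8 members, 0 had groups without any overlap over all rats, where 5.84% of symbols had such groups. Within rats 17 to 24, 2 of 8 members were called (TGFB1 higher, SMAD7 lower) against 6.96% of 11839 symbols. Within rats 25 to 32, 5 of 8 were called against 50% of symbols, so the members' share there was near that of all genes. Groups did not overlap for 2 of 8 members in rats 17 to 24 and for 4 of 8 in rats 25 to 32, where 13.7% and 40% of symbols had such groups.

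**Figure D2:**
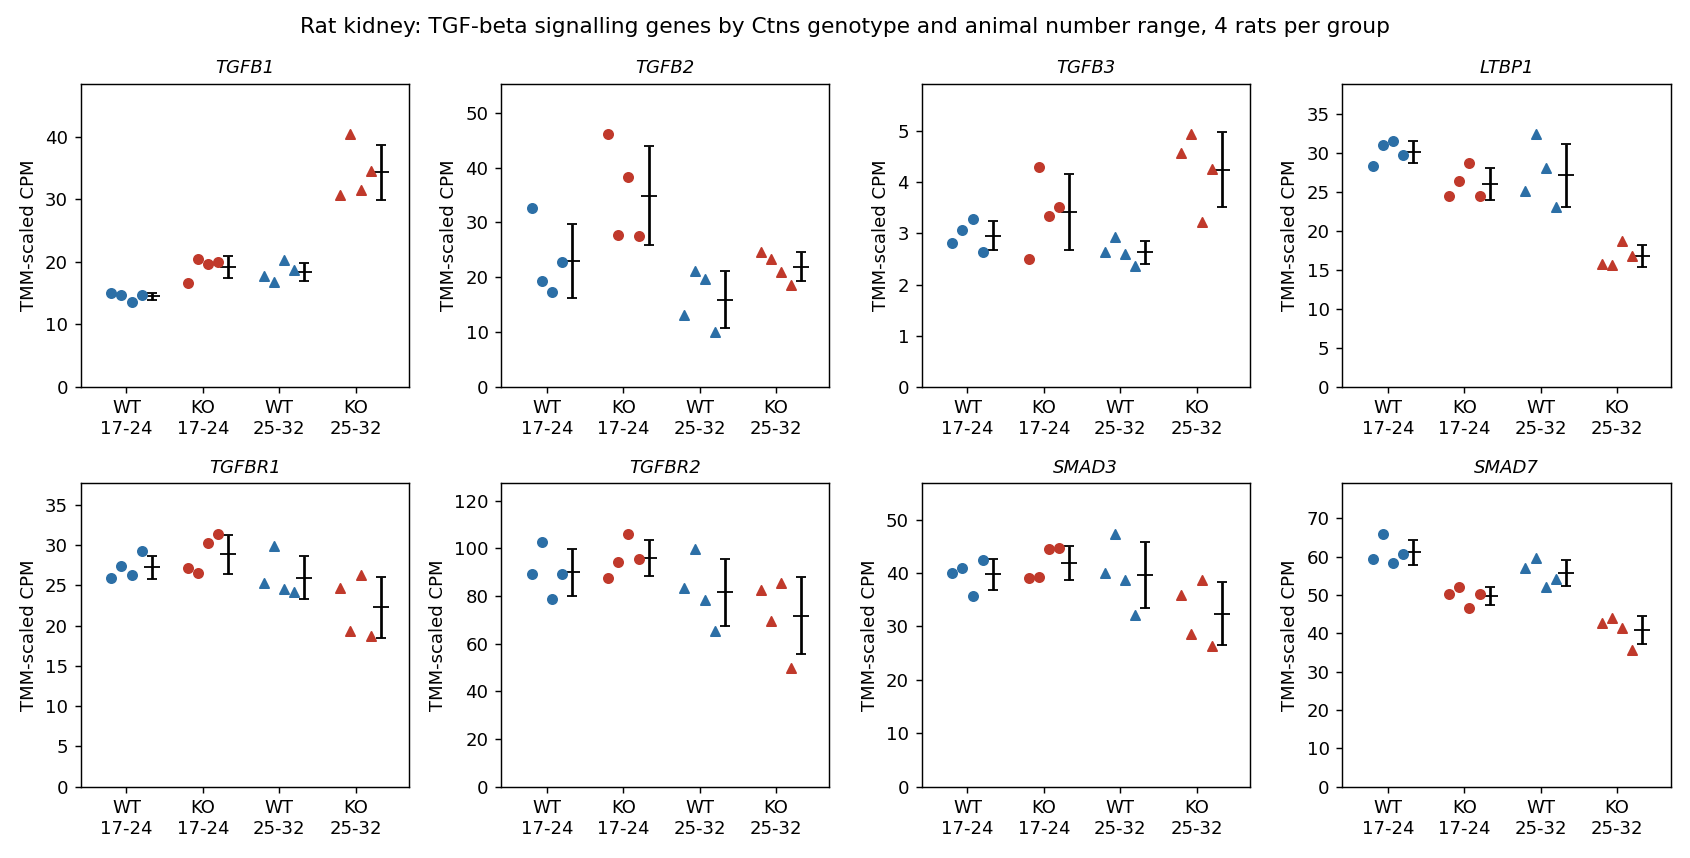
TMM-scaled CPM of the 8 members in Ctns WT (blue) and Ctns KO (red) rats 17 to 24 (circles) and 25 to 32 (triangles), 1 point per rat, 4 rats per group, with the mean and SD as bars. TGFB1 reaches 30.8 to 40.4 in Ctns KO rats 25 to 32, where LTBP1 is lowest, at 15.6 to 18.7.

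TGFB1, the ligand best known for inducing matrix, had CPM of 16.6, 20.4, 19.6 and 19.9 in Ctns KO rats 18, 20, 22 and 24, against 15.0, 14.6, 13.6 and 14.7 in Ctns WT rats 17, 19, 21 and 23. In the other range it had 30.8, 40.4, 31.5 and 34.6 in Ctns KO rats 26, 28, 30 and 32, against 17.7, 16.8, 20.3 and 18.6 in Ctns WT rats 25, 27, 29 and 31. The genotypes did not overlap in either range. Over all rats the ratio of means was 1.63 (log2 fold change 0.70, standard error 0.17, adjusted p = 0.005 by edgeR, Benjamini-Hochberg adjusted). It was 1.32 in rats 17 to 24 (log2 0.40, standard error 0.09, adjusted p = 0.0125) and 1.87 in rats 25 to 32 (log2 0.90, standard error 0.09, adjusted p = 6.39e-07). Without Ctns WT rat 21 the adjusted p in rats 17 to 24 was 0.0512.

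LTBP1 moved the other way. Its CPM was 24.4, 26.5, 28.8 and 24.4 in Ctns KO rats 18, 20, 22 and 24, against 28.3, 30.99, 31.6 and 29.7 in Ctns WT rats 17, 19, 21 and 23. In Ctns KO rats 26, 28, 30 and 32 it was 15.8, 15.6, 18.7 and 16.8, against 25.1, 32.4, 28.03 and 23.1 in Ctns WT rats 25, 27, 29 and 31. Only Ctns KO rat 22 reached the wild-type range of rats 17 to 24, and in rats 25 to 32 the genotypes were apart. The ratio of means was 0.617 in rats 25 to 32 (log2 fold change -0.70, standard error 0.10, adjusted p = 1.37e-05 by edgeR). In rats 17 to 24 it was 0.863 and did not pass (log2 -0.21, standard error 0.09, adjusted p = 0.209). Over all rats the change was -0.42 (standard error 0.13, adjusted p = 0.0216), and without Ctns KO rat 32 it was past the threshold no longer (adjusted p = 0.0582).

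The sequences before the start sites of the rat genes of this opposed pair are shown because their changes differ in sign. They are the 250 bases upstream of each start, 5′ to 3′ on the strand of the gene, from RefSeq on GRCr8, a later build than that of the counts. Tgfb1 lies at chr1:90324062-90324311 (plus strand) and Ltbp1 at chr6:26177302-26177551 (minus strand). Capitals mark matches, on either strand, to TGACGTCA (the cAMP response element), TGACG (its core) and CAGAC (the SMAD box).
Tgfb1: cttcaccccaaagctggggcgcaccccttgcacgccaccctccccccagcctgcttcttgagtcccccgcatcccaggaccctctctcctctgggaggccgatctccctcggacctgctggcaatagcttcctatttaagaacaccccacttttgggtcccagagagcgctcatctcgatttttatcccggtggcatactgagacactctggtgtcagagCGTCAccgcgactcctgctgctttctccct
Ltbp1: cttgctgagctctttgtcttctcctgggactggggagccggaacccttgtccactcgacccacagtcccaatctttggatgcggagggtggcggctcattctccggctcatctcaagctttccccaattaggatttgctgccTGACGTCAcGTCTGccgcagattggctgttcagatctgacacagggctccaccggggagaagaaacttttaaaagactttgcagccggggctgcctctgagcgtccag
The Ltbp1 window holds the full element, which itself contains TGACG on both strands, and a SMAD box in reverse next to it. The Tgfb1 window holds 1 TGACG in reverse and no CAGAC. Of the 33469 promoter windows in the table, 1.59% hold TGACGTCA, 18.2% TGACG and 42.9% CAGAC. All 8 rat members had a window. No window of the 8 holds TGANTCA (the AP-1 site, in 6.34% of all windows), GTCTAGAC (the SMAD palindrome, 0.173%) or TATAAA (the TATA box, 12.9%). GGGCGG (the GC box, 30.5% of all windows) stands in those of Tgfbr1, Tgfbr2, Smad3 and Smad7, and GGCGCC (a GC-rich BMP-responsive element, 8.69%) in those of Tgfbr1 and Smad7. These are matches of letters, not binding sites.

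TGFB3 rose over all rats (log2 fold change 0.45, standard error 0.13, adjusted p = 0.0158 by edgeR). Its CPM was 4.57, 4.94, 3.22 and 4.25 in Ctns KO rats 26, 28, 30 and 32, against 2.64, 2.92, 2.60 and 2.37 in Ctns WT rats 25, 27, 29 and 31, without overlap (log2 0.68, standard error 0.17, adjusted p = 0.00274). In rats 17 to 24 it was 2.49, 4.30, 3.34 and 3.52 against 2.82, 3.07, 3.29 and 2.64. There Ctns KO rat 18 was the lowest of all 8, and the difference of 0.21 (standard error 0.17) did not pass (adjusted p = 0.587). TGFB3 rested on 64 to 147 reads per rat, the fewest of the 8 members.

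TGFB2, the third ligand, varied widely among animals of one group. Its CPM was 46.1, 27.8, 38.2 and 27.5 in Ctns KO rats 18, 20, 22 and 24, against 32.5, 19.4, 17.2 and 22.8 in Ctns WT rats 17, 19, 21 and 23. In the other range it was 24.7, 23.3, 21.04 and 18.7 in Ctns KO rats 26, 28, 30 and 32, against 13.02, 21.1, 19.6 and 10.01 in Ctns WT rats 25, 27, 29 and 31. Within each range all 4 knockouts lay above the wild-type median, yet the genotypes overlapped. The change over all rats was 0.55 (standard error 0.22, adjusted p = 0.0693 by edgeR) and did not pass. It passed with the number range as a covariate or with DESeq2, at adjusted p down to 0.0155, and without Ctns KO rat 32 or Ctns WT rat 17.

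SMAD7, the inhibitor that blocks the active receptor, fell in both ranges. Its CPM was 50.3, 52.1, 46.5 and 50.1 in Ctns KO rats 18, 20, 22 and 24, against 59.4, 65.9, 58.3 and 60.7 in Ctns WT rats 17, 19, 21 and 23. In Ctns KO rats 26, 28, 30 and 32 it was 42.7, 43.9, 41.3 and 35.7, against 57.1, 59.6, 52.1 and 54.1 in Ctns WT rats 25, 27, 29 and 31. The genotypes did not overlap within either range, and 7 of 8 knockouts lay below every wild type. The ratio of means was 0.815 in rats 17 to 24 (log2 -0.30, standard error 0.07, adjusted p = 0.0111 by edgeR) and 0.734 in rats 25 to 32 (log2 -0.45, standard error 0.07, adjusted p = 3.98e-05). Over all rats the change was -0.37 (standard error 0.07, adjusted p = 0.00137), and it stayed past the threshold whichever rat was left out.

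The receptors and SMAD3 showed no change over all rats that passed the test. TGFBR2 ran from 49.7 to 106 CPM in the 8 knockouts (median 86.4) and from 65.3 to 102 in the 8 wild types (median 86.1). Its log2 difference was -0.03 with an interval from -0.28 to 0.22, and TGFBR1 differed by -0.06 (interval -0.25 to 0.14). For TGFBR1, reads were not whole numbers in 9 of the 16 libraries, so its counting is uncertain to that extent. SMAD3 ran from 26.3 to 44.6 CPM in the knockouts (median 38.9) and from 32.2 to 47.3 in the wild types (median 40.0), a difference of -0.09 (interval -0.30 to 0.11).

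Within rats 25 to 32, SMAD3 was lower at the edge of the threshold (log2 -0.29, standard error 0.12, adjusted p = 0.0494 by edgeR). Its CPM was 35.8, 28.6, 38.7 and 26.3 in Ctns KO rats 26, 28, 30 and 32, against 40.1, 47.3, 38.7 and 32.2 in Ctns WT rats 25, 27, 29 and 31, so the genotypes overlapped. Ctns KO rat 32 was the lowest of the 8 for SMAD3, TGFBR1 and TGFBR2. The SMAD3 call was lost without Ctns KO rat 28 or 32 or Ctns WT rat 25, 27 or 29, and under 4 of 5 other settings, with adjusted p up to 0.217. TGFBR1 in this range was -0.23 (adjusted p = 0.0800) and passed only without Ctns KO rat 26 or 30.

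**Figure D3:**
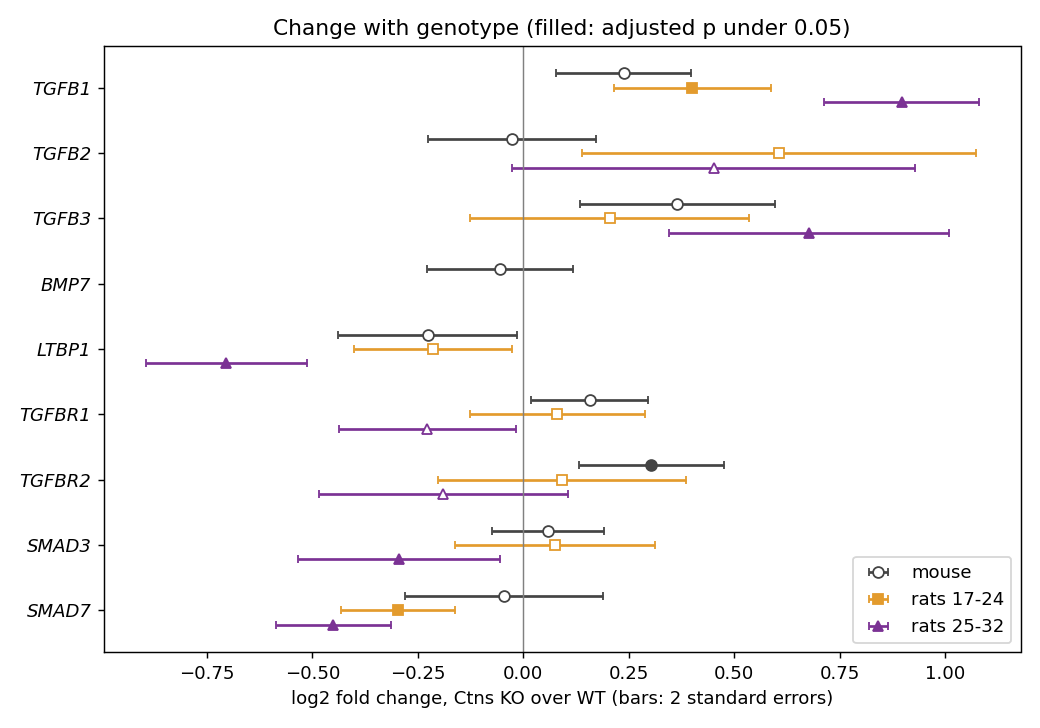
Log2 fold change of Ctns KO over Ctns WT for each member in the mouse (grey circles), rats 17 to 24 (orange squares) and rats 25 to 32 (purple triangles), with bars of 2 standard errors and filled symbols where the adjusted p is under 0.05. TGFB1 lies right of 0 in each comparison and LTBP1 left of 0, with both farthest from 0 in rats 25 to 32.

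Whether the effect of genotype differed between the number ranges was tested as an interaction. It differed for 2 of 8 members, where 14.7% of all symbols were called. For TGFB1 the change was larger by 0.50 in rats 25 to 32 (standard error 0.13, adjusted p = 0.0186 by edgeR), and for LTBP1 it was more negative, by -0.49 (standard error 0.13, adjusted p = 0.0228). The LTBP1 call was lost without Ctns KO rat 22 or 28 (adjusted p up to 0.0542). For TGFB3 the difference of 0.47 (interval 0.00 to 0.94) and for SMAD7 that of -0.15 (interval -0.35 to 0.04) did not pass. SMAD3 (-0.37), TGFBR1 (-0.31) and TGFBR2 (-0.28) were each lower in the knockout effect of rats 25 to 32, also without passing.

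The wild types of the ranges differed as well. TGFB1 was higher in Ctns WT rats 25 to 32 than in Ctns WT rats 17 to 24 by 0.34 (standard error 0.09, adjusted p = 0.0142 by edgeR), and the 4 values of one range, 16.8 to 20.3, lay above the 4 of the other, 13.6 to 15.0. It was the 1 member of 8 called, against 21.1% of symbols, and without Ctns WT rat 29 its adjusted p was 0.0701. TGFB2 was lower by -0.52 without passing (interval -0.99 to -0.04, adjusted p = 0.139). These comparisons share libraries with those of genotype within each range.

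Cell type markers also differed between the genotypes in the rat. In rats 25 to 32 the summed CPM of the 8 proximal tubule markers in the table ran from 9579 to 12057 in Ctns KO and from 18762 to 21796 in Ctns WT, and in rats 17 to 24 from 12964 to 13635 and from 15141 to 17587. The summed CPM of the 7 macrophage markers ran from 1497 to 2208 against 1404 to 1743 in rats 25 to 32, and from 1277 to 1496 against 1284 to 1404 in rats 17 to 24, overlapping in both. Taken gene by gene, 5 of 7 macrophage markers were higher in rats 25 to 32 (median log2 fold change 1.18) and 3 of 7 in rats 17 to 24 (0.55). Of all symbols, 50% and 6.96% were called in these ranges, so the 2 counts are not comparable as such. The 6 lymphocyte markers summed to 10.6 to 15.9 CPM against 4.02 to 4.90 in rats 25 to 32 and to 4.34 to 5.70 against 1.94 to 3.66 in rats 17 to 24, without overlap in either. The 6 fibroblast markers summed to 431 to 484 CPM in Ctns KO and to 231 to 264 in Ctns WT rats 25 to 32, and to 299.6 to 393 and to 237 to 259.5 in rats 17 to 24. The 5 endothelial markers summed to 288 to 323 CPM against 358 to 384 in rats 25 to 32, without overlap. In rats 17 to 24 they summed to 427 to 442 against 421 to 468. The 5 distal tubule markers summed to 4201 to 5027 CPM against 3100 to 3772 in rats 25 to 32, without overlap. In rats 17 to 24 they summed to 4202 to 4602 against 3833 to 4610. No marker in the table was at 0 in any rat group. Their part in the changes of TGFB1, TGFB3, LTBP1 and SMAD7 was not tested.

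Whether the effect of genotype differed between rat and mouse was tested for the 8 members found in both. By limma 0 of 8 passed, against 1.62% of 9957 symbols, and 0 of 8 also by edgeR. Before adjustment 1 member was under 0.05, SMAD7, whose rat effect lay lower by -0.28 (interval -0.56 to -0.01, adjusted p = 0.312 by limma). For TGFB1 the rat effect exceeded the mouse effect by 0.42 with an interval from -0.07 to 0.90, and for TGFB2 by 0.60 with an interval from -0.02 to 1.22. For TGFB3 the difference was -0.00069 (interval -0.32 to 0.32), and for LTBP1 -0.17 (interval -0.57 to 0.22).

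The levels of members were also set against each other across the 16 rat libraries, on the log2 CPM scale. TGFBR1 and SMAD3 (Pearson's r = 0.95), TGFBR2 and SMAD3 (0.92) and TGFBR1 and TGFBR2 (0.87) went together, and they still did after each group's mean was taken off (0.92, 0.91 and 0.79). In contrast, TGFB1 ran against LTBP1 (-0.92) and SMAD7 (-0.89) over all rats, but within groups these values were -0.21 and -0.09. The points share library, depth and genotype group, so these values are descriptions only.

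**Figure D4:**
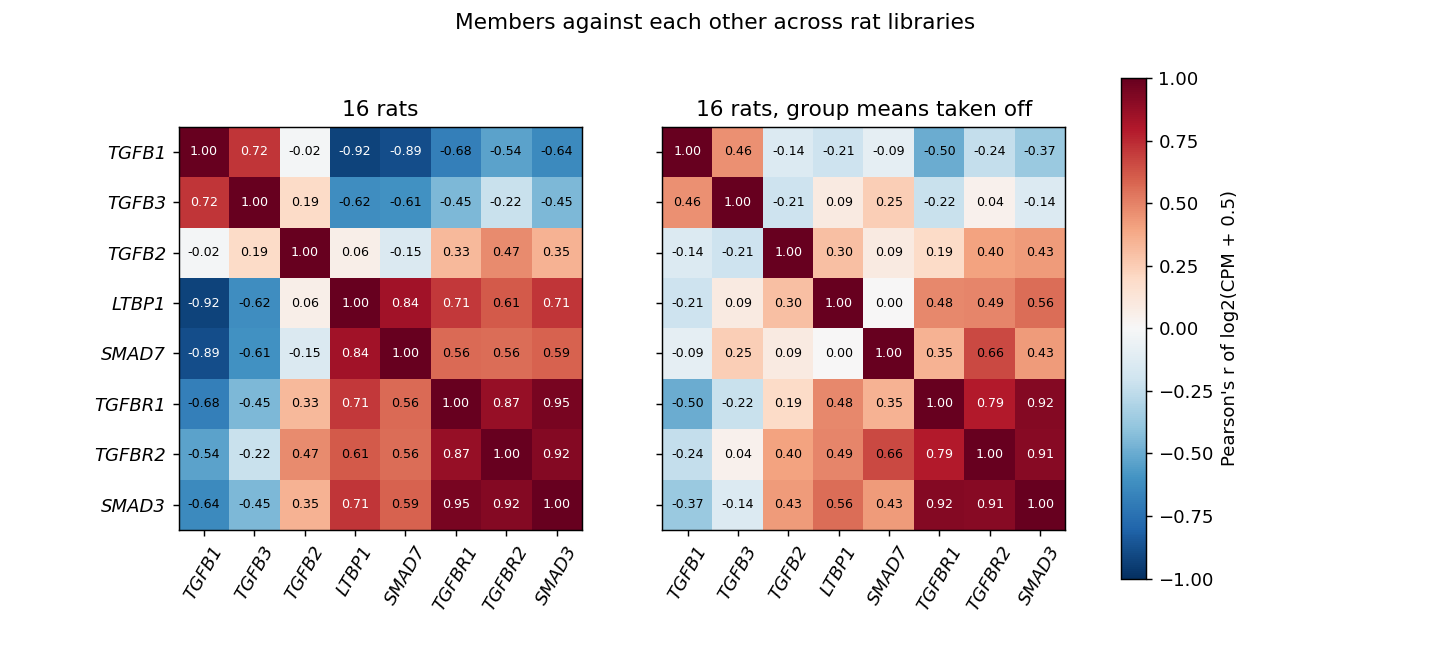
Pearson's r of log2(CPM + 0.5) between members over 16 rats, as measured (left) and after taking off the mean of each of the 4 groups of genotype and number range (right). The block of TGFBR1, TGFBR2 and SMAD3 stays at 0.79 to 0.92 on the right, while TGFB1 against LTBP1 goes from -0.92 to -0.21.

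By the same measure, the symbols most like TGFB1 over 16 rats were UNC93B1 (r = 0.99) and FCGR1A (0.99), and those most like LTBP1 were SLIT2 and VPS39 (both 0.95). Most like TGFB3 were SLC41A3 (0.89) and NRXN2 (0.89), and most like TGFB2 were AQP4 (0.87) and BCL2L1 (0.85). SMAD7 was nearest to IFT122 (0.95) and PPTC7 (0.93), SMAD3 to RO60 (0.99) and BBX (0.98), TGFBR1 to PTPN4 (0.97) and MGA (0.97), and TGFBR2 to SH3PXD2A (0.97) and BICC1 (0.96). These are the highest values among the 11584 symbols tested, so they are high by selection. With group means taken off, they ran from 0.56 (TGFB2 with BCL2L1) to 0.98 (SMAD3 with RO60), and SMAD7 with IFT122 was at 0.69.

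The rest of the pathway was covered by 92 further genes in 8 lists. Over all symbols the median log2 fold change was 0.01 in the mouse and -0.02 in the rat, and 6.34% of symbols were called higher and 2.42% lower in the mouse and 15.2% and 12.3% in the rat. For the 9 members the median was 0.06 in the mouse, and for the 8 in the rat it was -0.05.

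Genes of TGF-beta latency and activation stood higher in Ctns KO in 5 of 13 tested in the mouse and 6 of 11 in the rat, and lower in 0 and 1, with medians of 0.29 and 0.31. The 1 lower in the rat was FURIN (log2 -0.32, adjusted p = 0.00688 by edgeR). In rats 25 to 32 alone, where 50% of symbols were called, 6 of 11 were higher and 4 lower. The 4 were FURIN, ITGB6, ITGB8 and THBS1, with log2 changes of -0.47, -0.54, -0.67 and -0.41. In rats 17 to 24, 2 of 11 were higher and 0 lower, against 6.96% of symbols. FURIN, ITGB6, ITGB8 and THBS1 were named after their values were seen. LTBP2, a matrix relative of LTBP1, had scaled values of 0.117 to 0.200 in Ctns KO against 0.0192 to 0.0271 in Ctns WT mice (log2 fold change 2.15, standard error 0.15, adjusted p = 3.23e-06 by limma). In the rat its CPM was 6.41 to 29.4 (median 16.1) against 1.35 to 4.74 (median 2.89), again without overlap (log2 2.57, standard error 0.36, adjusted p = 9.48e-05 by edgeR). The mouse log2 value is lessened by the pseudocount, on 17 to 56 reads in each wild type. The ratio of group means of LTBP2 was 7.55 in the mouse and 5.92 in the rat. By range it was 3.51 in rats 17 to 24 and 7.49 in rats 25 to 32. LTBP2 therefore rose in both species where LTBP1 did not, and any bearing of this on TGF-beta latency was not tested. LTBP4, another relative, FBN1, the fibrillin to which these proteins attach, and EMILIN1, an elastic fibre protein, also rose in both. Their log2 changes were 0.27, 1.03 and 0.55 in the mouse and 0.47, 0.31 and 0.45 in the rat. EMILIN1 passed in rats 25 to 32 (log2 0.73, adjusted p = 1.69e-06 by edgeR) but not in rats 17 to 24 (log2 0.15, adjusted p = 0.347). The LTBP4 call in the mouse was lost without Ctns KO mouse 3, 5 or 8 or Ctns WT mouse 4, with adjusted p up to 0.0749. The FBN1 call in the rat was lost without Ctns KO rat 20, 22, 26 or 30 or Ctns WT rat 21, 23, 25 or 31, with adjusted p up to 0.0668, and neither range alone gave it (adjusted p = 0.144 and 0.172 by edgeR).

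Among BMP, activin and GDF ligands, 3 of 8 tested were higher and 0 lower in the mouse, and 3 of 8 higher and 2 lower in the rat. GDF15, a stress-induced member of the family, had means of 0.316 ± 0.0246 in Ctns KO and 0.0530 ± 0.0127 in Ctns WT mice (SD, n = 4 each; log2 2.22, adjusted p = 3.56e-07 by limma). In the rat its CPM was 37.3 ± 16.5 and 10.5 ± 2.61 (SD, n = 8 each; log2 1.82, adjusted p = 7.07e-05 by edgeR), and the genotypes did not overlap in either species. The ratio of its group means was 5.97 in the mouse and 3.54 in the rat. By range it was 2.69 in rats 17 to 24 and 4.10 in rats 25 to 32. INHBB, an activin subunit, rose in the mouse (log2 0.97, adjusted p = 0.0121 by limma). MSTN, myostatin, fell in the rat by 1.59 on the log2 scale (adjusted p = 0.0175 by edgeR), on only 0 to 16 reads in Ctns KO and 7 to 36 in Ctns WT. The other rat calls were BMP4, lower, and BMP2 and INHA, higher (log2 -0.49, 0.81 and 0.61, adjusted p = 9.76e-05, 0.0129 and 0.00615 by edgeR). BMP4 passed in both ranges (adjusted p = 0.0101 and 5.24e-05), BMP2 and INHA only in rats 25 to 32 (0.00937 and 0.000111). BMP4, BMP2 and INHA were named after their values were seen.

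**Figure D5:**
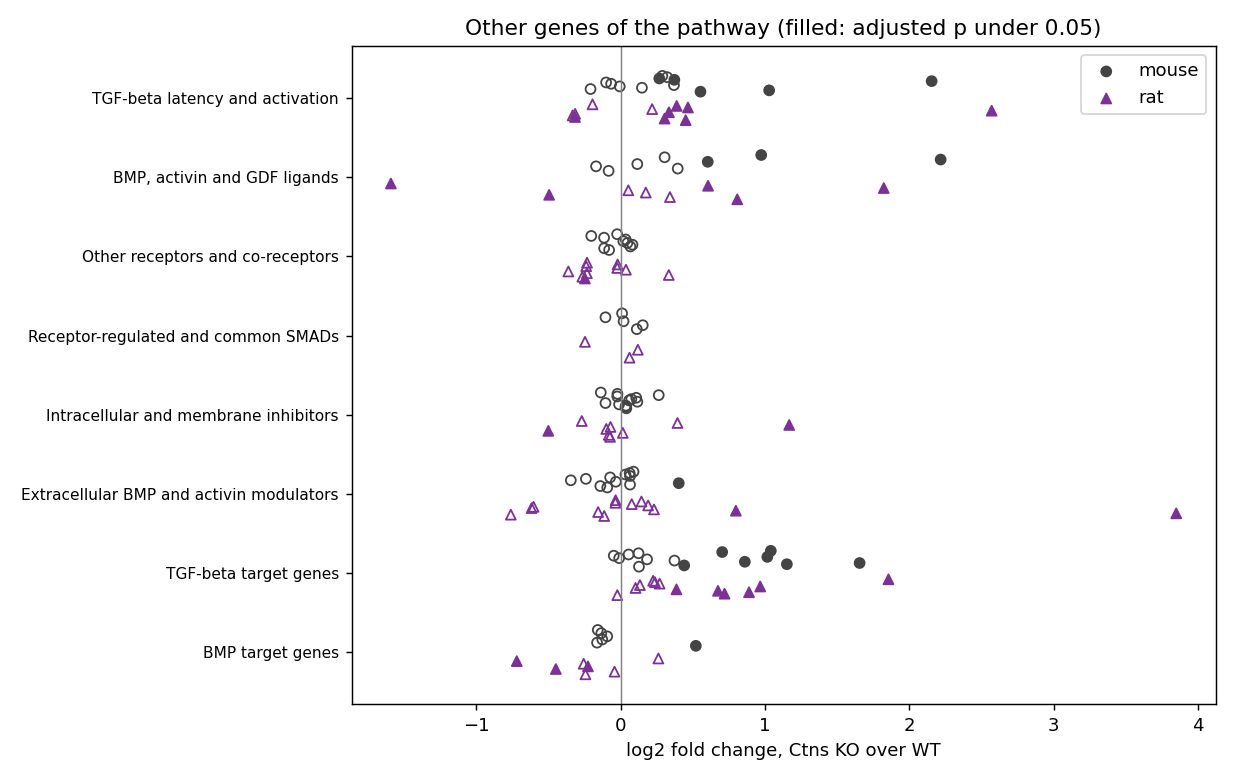
Log2 fold change of Ctns KO over Ctns WT for the tested genes of 8 lists of the pathway, in mice (grey circles) and all rats (purple triangles), filled where the adjusted p is under 0.05. Filled points right of 0 are found mainly among latency genes, ligands and TGF-beta target genes, while receptors and SMADs hold 1 filled point, ACVR1 in the rat.

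Over all rats and in the mouse, receptors, SMADs and intracellular inhibitors showed few calls. Of 10 other receptors, 0 passed in the mouse by limma (1 before adjustment, 0 by edgeR and 1 by DESeq2). In the rat 1 of 10 passed by edgeR, the type I receptor ACVR1, which fell by 0.25 on the log2 scale (adjusted p = 0.0267). Its call was lost without Ctns KO rat 28 or 32 or Ctns WT rat 23, 27 or 31, with adjusted p up to 0.066. The median over these 10 receptors was -0.23 in the rat, with 2 above 0. Of the other SMADs, 0 of 5 passed in the mouse by limma, edgeR or DESeq2, with 0 before adjustment, and in the rat 0 of 3 by edgeR or limma-voom and 0 of 4 by DESeq2, with 2 before adjustment by each. Of the intracellular and membrane inhibitors, 0 of 13 passed in the mouse by any of its tools, with 0 before adjustment, and 2 of 9 in the rat by edgeR, in opposite directions. TGIF1, a nuclear corepressor of SMADs, rose in the rat (log2 1.17, standard error 0.19, adjusted p = 0.000319 by edgeR), and its CPM of 16.5 to 40.9 (median 27.8) in Ctns KO lay above the 11.1 to 14.8 (median 12.8) of Ctns WT. Its ratio of group means was 1.52 in rats 17 to 24 and 2.97 in rats 25 to 32. SKIL, another corepressor, fell (log2 -0.50, adjusted p = 0.0275), a call that was lost without Ctns KO rat 26, 28 or 32 or Ctns WT rat 25 or 27, with adjusted p up to 0.0626. Its change was -0.17 in rats 17 to 24 (adjusted p = 0.694) and -0.91 in rats 25 to 32 (adjusted p = 0.00044 by edgeR). In rats 25 to 32 alone, where 50% of symbols were called, 4 of 10 receptors were lower (ACVR1, ACVR1B, ACVR2A and BMPR2), as were 2 of 4 SMADs (SMAD5 and SMAD9), and 3 of 9 inhibitors were higher and 3 lower. Apart from ACVR1, these names were chosen after their values were seen. In rats 17 to 24 these lists held 1 call, TGIF1, which was higher.

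Of the extracellular BMP and activin modulators, 1 of 12 was higher in the mouse and 2 of 13 in the rat, with 0 lower. FST, follistatin, which binds activins, had the largest change of the lists, in the rat: CPM was 0.563 to 4.97 (median 2.01) in Ctns KO and 0.0371 to 0.310 (median 0.150) in Ctns WT. The knockouts ran from 0.563 to 1.15 in rats 17 to 24 and from 2.86 to 4.97 in rats 25 to 32. The ratio of group means was 5.89 and 23.6 in these ranges. The genotypes did not overlap, on 16 to 146 and 1 to 12 reads (log2 3.85, standard error 0.52, adjusted p = 6.45e-05 by edgeR). In the mouse FST differed by 0.07 with a standard error of 0.43, and its sign changed with the scale or test used. FSTL3, a relative of FST, rose in the rat (log2 0.80, adjusted p = 0.000279 by edgeR) and FSTL1 in the mouse (log2 0.40, adjusted p = 0.0119 by limma). The FSTL1 call was lost without the filter on low values (adjusted p = 0.0574) and without Ctns KO mouse 6 (0.0605).

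Genes listed as TGF-beta targets stood higher in 7 of 14 tested in the mouse and 6 of 12 in the rat, with 0 lower in either, and medians of 0.41 and 0.33. In rats 17 to 24, 3 of 13 were higher and 0 lower, where 6.96% of symbols were called. In rats 25 to 32, 9 of 13 were higher and 0 lower, where 50% were called. SMAD7 and SKIL, which fell in the rat as given above, were counted as a member and an inhibitor and are not in this list. Among the listed targets that rose in both species were COL3A1 and COL1A1, fibrillar collagens, FN1, fibronectin, and TIMP1, an inhibitor of matrix proteases. Their log2 changes were 1.66, 1.15, 0.86 and 1.04 in the mouse and 0.89, 0.72, 0.68 and 1.86 in the rat. FN1 passed in rats 25 to 32 (log2 0.99, adjusted p = 1.11e-05 by edgeR) but not in rats 17 to 24 (log2 0.31, adjusted p = 0.187). The mouse value of TIMP1, on 11 to 22 reads in each wild type, depended on the pseudocount: on recovered reads it was 2.06 by edgeR and by DESeq2, and the ratio of group means was 4.03 in the mouse and 3.62 in the rat. COL1A1, COL3A1, ACTA2 and POSTN are also on the fibroblast marker list, which rose as given above. In mice COL1A1 and COL3A1 were its only markers past the threshold, so the 2 lists are not independent there. TIMP1 had a CPM of 7.15 to 39.8 (median 17.2) in Ctns KO rats against 4.27 to 6.93 (median 5.57) in Ctns WT rats, without overlap. Its genotype effect was larger in rats 25 to 32, by 1.72 (standard error 0.24, adjusted p = 0.000391 by edgeR).

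BMP targets went the other way in the rat, with 0 of 7 higher and 3 lower and a median of -0.24. ID4 and ID1, inhibitors of differentiation that BMP signalling induces, each had 8 of 8 knockouts below every wild type. ID4 had a CPM of 25.8 to 50.0 (median 41.0) against 57.3 to 71.8 (median 68.9), a log2 change of -0.72 (standard error 0.12, adjusted p = 0.000368 by edgeR). ID1 had 40.2 to 57.6 (median 47.4) against 59.2 to 78.7 (median 62.9), a change of -0.45 (standard error 0.08, adjusted p = 0.00096). In the mouse 1 of 6 BMP targets passed, ATOH8, which was higher (log2 0.52, adjusted p = 0.0173 by limma, up to 0.0689 without Ctns KO mouse 3 or 5), while ID4 differed by -0.16 (standard error 0.12) and ID1 by -0.13 (standard error 0.30) without passing. Over all rats ATOH8 went the other way without passing (log2 -0.24, adjusted p = 0.211 by edgeR). It was lower past the threshold with the number range in the fit (0.0357) and in rats 25 to 32 (log2 -0.34, adjusted p = 0.0393).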

How the data were processed

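Symbols were matched by exact name, and members, pathway lists and markers were chosen with earlier results of these data known. The submitters' processing notes name bcl2fastq 2.20, STAR 2.7.3, DESeq2 1.24.0, R 3.6.1 and the builds rn5 and mm10, with no role for each. The mouse table that the authors deposited holds a signal per symbol; from its values, it is reads plus 0.5 over the 75th percentile of the library plus 0.5, and recovered reads were whole within 0.01 for 99% of values. The rat table that the authors deposited holds estimated counts, reads with 1/6 added, of which 97.7% were whole after taking this off; they were rounded. Values that were not whole stand at 317 mouse and 556 rat symbols. Symbols are of human style, so several rodent genes can stand under one.

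Mouse values were tested with limma 3.58.1 (trend, robust) in R 4.3.3 on log2(value + 0.02), over symbols of at least 0.02 in 4 mice; fold changes on this scale understate the change of low genes. Rat reads were tested with edgeR 4.0.16 (quasi-likelihood, robust, TMM, filterByExpr), the ranges as contrasts in 1 fit of 4 groups, and the species difference with limma on rat reads scaled like the mouse values. P-values were adjusted by Benjamini-Hochberg over all symbols of a fit, with a threshold of 0.05, and intervals are 2 standard errors. The pseudocount is smaller than 1 because 1 lies at the 75th percentile. The tests were checked on simulated data. No pair of libraries within a group agreed within counting noise (chi-square per degree of freedom at least 12.7 in mice and 8.85 in rats). Depth bounds only the counting error, and precision is set by how many animals a group has.

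Named by rule were CTNS, the members, in each list and species the 2 largest changes past the threshold and every list gene past it in both species in one direction, and the 2 symbols closest to each member by correlation; a further gene under this rule is not reported here. Alternatives were pseudocounts of 0.1 and 1, no filter, edgeR and DESeq2 1.42.0 on recovered mouse reads, DESeq2 size factors, DESeq2 and limma-voom for rats, the range as covariate, each range alone, and leaving out each animal.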

Additional observations from a re-analysis of the deposited data

Results flagged for a closer look

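In 2 of the 66 groups of 4 to 8 animals examined, 1 animal lay far from the others of its group by Dixon's test, and chance alone gives about 1 in 20. TGFBR2 in Ctns WT mouse 2 had a scaled value of 2.22, while the other wild types lay between 1.89 and 1.91 (gap over range 0.948). BMP7 in Ctns WT mouse 4 had 1.90, while the others lay between 1.496 and 1.54 (gap over range 0.903).

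The effect of genotype differed between rats 25 to 32 and rats 17 to 24 for TGFB1 (log2 difference 0.50, adjusted p = 0.0186 by edgeR) and for LTBP1 (-0.49, adjusted p = 0.0228).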

How the results depend on the processing

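In rats TGFB1, TGFB3, LTBP1 and SMAD7 kept their direction under all settings run, and the calls of TGFB1, TGFB3 and SMAD7 over all rats held whichever rat was left out. In mice 1 member was past the threshold, against 0 without the filter on low values and 0 to 2 when 1 mouse was left out, on 520 to 1339 of all symbols. With 1 rat left out, 1 to 3 members were past it in rats 17 to 24 (503 to 811 symbols), 1 to 2 for the range difference (1010 to 2392 symbols) and 0 to 1 for the wild types of the ranges. For the species difference, the 161 symbols past the threshold became 435 without a filter, 307 with edgeR and 583 once the range was a covariate, and 84 to 245 with 1 animal left out, while 0 members passed throughout. The cause of these shifts was not tested.

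Values that changed sign were past the threshold in no setting run. Some were imprecise rather than near 0, such as FST and ID1 in mice. FST in mice was -0.00096 with a pseudocount of 1, -0.22 with edgeR and -0.083 with DESeq2, and -0.26 to 0.39 with 1 mouse left out. TGFB3 in the species difference was 0.0050 with a pseudocount of 1 and -0.062 to 0.065 with 1 animal left out. With 1 mouse left out, BMP7 ran from -0.11 to 0.026, SMAD7 from -0.18 to 0.024, TGFB2 from -0.082 to 0.028, FSTL3 from -0.15 to 0.094 and ID1 from -0.41 to 0.041. With 1 rat left out, TGFBR1 ran from -0.11 to 0.014 and TGFBR2 from -0.089 to 0.067 over all rats, TGFB2 from -0.37 to 0.015 in the range difference and SMAD3 from -0.10 to 0.072 between wild types.

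No paired analysis was possible because the labels do not say which animals came from the same litter. Depth limits most what rests on few reads, such as FST in Ctns WT rats (1 to 12 reads), MSTN in Ctns KO rats (0 to 16) and TIMP1 in Ctns WT mice (11 to 22).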
